A study of Mus musculus with 12 samples.

Results

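The 33 genes described here mark the oligodendrocyte lineage and its myelin, and they were taken by name from a list. All 33 were found among the 27179 genes of the deposited count table, and all 33 were among the 17937 genes with enough counts to be tested. They were measured by RNA sequencing of dissected whole hippocampus from 12 mice aged 3 months: 3 female and 3 male Nell-1+/6R mice, and as many WT mice of each sex. Nell-1+/6R mice carry the ENU-induced 6R allele of Nell1 on 1 chromosome in every cell, so they are haploinsufficient and keep a working copy, and the WT mice were their littermates. The question put to these genes is whether the haploinsufficient hippocampus differs from WT in its oligodendrocyte and myelin transcripts, and whether females and males differ.

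Oligodendrocytes wrap axons of the central nervous system in myelin, a lipid-rich membrane whose structural proteins are among the most abundant transcripts of these cells. They arise from precursors that carry the PDGF receptor alpha and the proteoglycan NG2, pass through a short differentiating stage, and mature under transcription factors such as Sox10, Olig2 and Myrf. In the hippocampus they are dense in the fibre tracts along its edge and sparse among the neurons.

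Library totals ran from 10834905 to 16016317 counts. Nell1, the gene that carries the mutation, was at 30.6 to 44.0 CPM (read counts scaled to a common library size) in the WT mice and at 17.2 to 20.8 CPM in the Nell-1+/6R mice. All 6 Nell-1+/6R mice were below all 6 WT mice for Nell1 (log2 fold change -0.93, SE 0.080, adjusted p = 0.00015 by edgeR's quasi-likelihood test with Benjamini-Hochberg adjustment over all genes tested). Transcripts of the labelled tissue's oligodendrocytes were present in every library, with the 33 genes together taking 0.356% to 0.828% of a library's counts and the rarest of them, Enpp6, never below 22 counts.

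The upstream sequences of a few of these genes are shown because the genes below rose and fell together from mouse to mouse, apart from Pdgfra, which did not. RefSeq (GRCm38.p6) gave a promoter window for 24 of the 33 genes, and each line holds the 250 bases (for Mag, 1 of its 3 windows) before the transcription start, 5′ to 3′ on the gene's strand. Capitals mark matches on either strand to ACAAAG, the core of sites bound by SOX proteins, to CTGGCAC or CTGGTAC, words bound by Myrf, and to CAGCTG, an E-box of the kind bound by Olig2.
Cnp, chr11:100574689-100574938, plus strand: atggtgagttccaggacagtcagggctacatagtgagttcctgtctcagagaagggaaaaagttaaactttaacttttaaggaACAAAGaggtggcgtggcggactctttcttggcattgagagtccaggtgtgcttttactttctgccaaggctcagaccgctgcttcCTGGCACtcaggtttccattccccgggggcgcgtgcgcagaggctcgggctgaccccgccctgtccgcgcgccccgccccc
Mag, chr7:30914864-30915113, minus strand: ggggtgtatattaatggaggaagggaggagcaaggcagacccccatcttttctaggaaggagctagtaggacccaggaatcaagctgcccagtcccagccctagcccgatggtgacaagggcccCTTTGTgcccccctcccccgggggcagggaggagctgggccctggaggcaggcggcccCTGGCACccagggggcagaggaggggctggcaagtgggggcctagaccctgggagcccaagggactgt
Mog, chr17:37023399-37023648, minus strand: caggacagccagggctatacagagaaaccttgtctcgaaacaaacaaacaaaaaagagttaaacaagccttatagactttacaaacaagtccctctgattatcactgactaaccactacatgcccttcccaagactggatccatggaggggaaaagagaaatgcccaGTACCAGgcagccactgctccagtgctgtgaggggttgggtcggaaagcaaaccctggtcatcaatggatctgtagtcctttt
Mobp, chr9:120149492-120149741, plus strand: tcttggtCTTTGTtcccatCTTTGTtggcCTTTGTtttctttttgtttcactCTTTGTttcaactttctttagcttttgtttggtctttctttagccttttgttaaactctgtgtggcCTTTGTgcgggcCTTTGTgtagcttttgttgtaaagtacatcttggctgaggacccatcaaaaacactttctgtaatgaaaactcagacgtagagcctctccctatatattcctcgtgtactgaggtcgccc
Pdgfra, chr5:75152001-75152250, plus strand: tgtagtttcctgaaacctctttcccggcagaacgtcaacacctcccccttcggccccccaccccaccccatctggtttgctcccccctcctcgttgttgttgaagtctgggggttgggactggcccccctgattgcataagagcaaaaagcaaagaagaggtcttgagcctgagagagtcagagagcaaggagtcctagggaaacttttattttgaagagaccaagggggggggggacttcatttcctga
At least 1 window of 7 of the 24 genes held the SOX word (29.2%, against 18.6% of the 27025 genes with a window in the table). The Myrf words were in windows of 5 genes (20.8% against 6.79%) and the E-box in windows of 2 (8.33% against 14.7%). No pair of these words overlapped in the windows shown. None of the 3 kinds of word was in any window of 14 of the 24 genes (58.3%, against 65.5% of all genes with a window). These 14 include Pdgfra and Ugt8a but also Qdpr, Mal, Cldn11, Nkx6-2 and Ppp1r14a, which moved closely with the other genes, while Tspan2 and Aspa, which followed them less, each held a word. Absence says only that these letters are not in those 250 bases, and Cnp, Mag, Mog and Mobp are shown from among the genes that held a word. A match is a description of the letters and not of binding.

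Levels differed widely between the genes. Per kilobase of exon, Mbp, a protein that compacts the myelin membrane, was the highest at 356 CPM per kb, followed by Cnp, an enzyme of the myelin cytoplasm, at 90.0, and Car2, a carbonic anhydrase, at 81.1. Trf, Olig1, Mal and Cldn11 followed at 69.1, 67.2, 63.0 and 62.6 CPM per kb, closer to each other than the spread of each over the mice. The lowest were Enpp6, a choline phosphodiesterase of newly differentiating cells, at 0.431, and Nkx2-2, a transcription factor of the lineage, at 1.99 CPM per kb. The precursor genes Pdgfra and Cspg4, which encodes NG2, were at 3.76 and 2.60 CPM per kb.

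No gene of the 33 differed between Nell-1+/6R and WT mice after adjustment over all genes tested (adjusted p = 1.00 for every one by edgeR), where 7 of the 17937 genes did (0.039%). At an unadjusted p under 0.05 there was 1 of 33, against 3.26% of all genes tested, and it was lower in Nell-1+/6R mice, as were 2.2% of all genes. None had both an unadjusted p under 0.05 and a fold above 1.5, the thresholds used in the study, against 1.46% of all genes, and for none were the 6 mice of one genotype all above or all below the 6 of the other, against 0.151%. The fitted log2 fold changes ran from -0.29 for Enpp6 to 0.13 for Gpr17, with 29 of 33 below 0 and a median of -0.09, where the median of all genes was -0.00. Whether this median differs from 0 was not tested. In bulk tissue, the number of oligodendrocytes and the RNA in each of them cannot be told apart.

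The 1 gene at an unadjusted p under 0.05 was Ugt8a (chr3:125865272-125938682, GRCm38.p6), the enzyme that makes galactosylceramide, a main lipid of myelin. Its lowest, median and highest levels were 20.7, 26.2 and 29.9 CPM in the 6 WT mice and 20.1, 21.6 and 23.8 CPM in the 6 Nell-1+/6R mice. The genotypes overlapped, with 2 of the 3 male WT mice inside the Nell-1+/6R range and all 3 female WT mice above it. The log2 fold change was -0.22 (SE 0.090, 95% interval -0.41 to -0.03, adjusted p = 1.00 by edgeR). Its p rose to 0.05 or above when any of 6 mice was left out, female WT 1 and 2, female Nell-1+/6R 2 and 3, male WT 2 and male Nell-1+/6R 2, up to 0.085, and to 0.099 after a correction for GC content and transcript length.

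**Figure D1:**
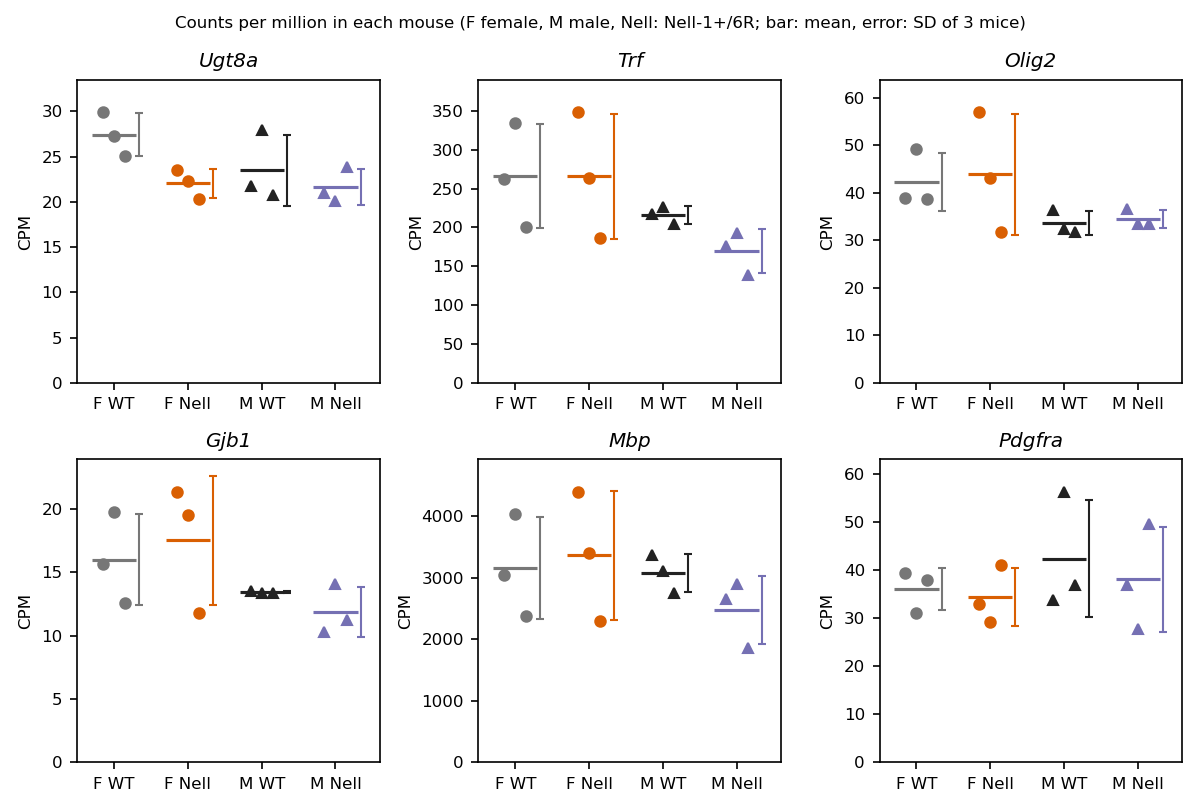
Scaled counts (CPM, y axis from 0) of 6 genes in each mouse by sex and genotype, with points for mice, horizontal bars for means and error bars for the SD of 3 mice. Ugt8a ran from 20.1 to 23.8 CPM in Nell-1+/6R mice and from 20.7 to 29.9 CPM in WT, while Mbp ran from 1855 to 4388 CPM over the 6 Nell-1+/6R mice alone.

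All 11 structural myelin genes had a fitted fold change below 0 and none passed a test. Mbp was at 2382, 3076 and 4029 CPM (lowest, median, highest) in WT mice and at 1855, 2778 and 4388 CPM in Nell-1+/6R mice. Its Nell-1+/6R range enclosed the WT range on both sides (log2 fold change -0.11, SE 0.17). Mag, an adhesion protein of the inner myelin wrap, had a log2 fold change of -0.15 (SE 0.17), and Cnp one of -0.10 (SE 0.15). Mobp, which stabilises compact myelin, Mog, a protein of the outer surface, and Cldn11, which forms its tight junctions, were at -0.10 (SE 0.17), -0.11 (SE 0.16) and -0.09 (SE 0.14). The errors of these genes were all wider than their fold changes. Ermn, a cytoskeletal protein of mature cells, had -0.15 with the smallest error of the group (SE 0.085). The 95% interval of every structural myelin gene, Ermn included, held 0. Mal, a myelin proteolipid, and Tspan2, a tetraspanin, were at -0.09 (SE 0.15) and -0.10 (SE 0.11). Opalin, a membrane glycoprotein, and Hapln2, a link protein at nodes of Ranvier, were at -0.14 (SE 0.20) and -0.05 (SE 0.16).

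The gap junction genes Gjb1 and Gjc3, which encode connexins that couple oligodendrocytes or myelin layers, were at -0.02 (SE 0.15) and -0.04 (SE 0.093). The 8 enzymes and carriers of mature cells were also all below 0, with Ugt8a the only one at an unadjusted p under 0.05. Aspa, which breaks down N-acetylaspartate, was at -0.21 (SE 0.13) and Trf, the iron carrier transferrin, at -0.17 (SE 0.15). Fa2h, which hydroxylates the fatty acids of myelin lipids, and Gal3st1, which makes sulfatide, were both at -0.12 (SE 0.15 and 0.14). Car2 was at -0.08 (SE 0.10), Qdpr, a pteridine reductase, at -0.07 (SE 0.14), and Ppp1r14a, an inhibitor of myosin phosphatase, at -0.09 (SE 0.20).

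The 6 transcription factors lay around 0, with 3 below it and 3 above. Sox10, which drives myelin gene expression, was at -0.08 (SE 0.14), Olig1 at 0.02 (SE 0.12) and Olig2 at 0.05 (SE 0.12). Nkx2-2, Nkx6-2 and Myrf act in differentiation. Nkx2-2 was at 0.08 (SE 0.18), Nkx6-2 at -0.02 (SE 0.20) and Myrf at -0.00 (SE 0.15). Among the precursor and differentiating cell genes, Pdgfra and Cspg4 were at -0.11 (SE 0.15) and -0.03 (SE 0.090). Bcas1, which marks early myelinating cells, and Lpar1, a lysophosphatidic acid receptor, were at -0.17 (SE 0.18) and -0.06 (SE 0.11). Enpp6 was at 2.04, 2.66 and 5.24 CPM in WT and at 1.84, 2.53 and 2.97 CPM in Nell-1+/6R mice. The genotypes overlapped, with male WT 2 alone far above the rest (-0.29, SE 0.24). Gpr17, a receptor of the stage between precursor and mature cell, was at 39.1, 46.7 and 47.9 CPM in WT and at 43.3, 49.2 and 57.5 CPM in Nell-1+/6R mice. It was the highest fold change of the 33 (0.13, SE 0.073), with an unadjusted p above 0.05 that fell below it after the correction for GC content and length (0.16, SE 0.065, adjusted p = 1.00 by edgeR).

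**Figure D2:**
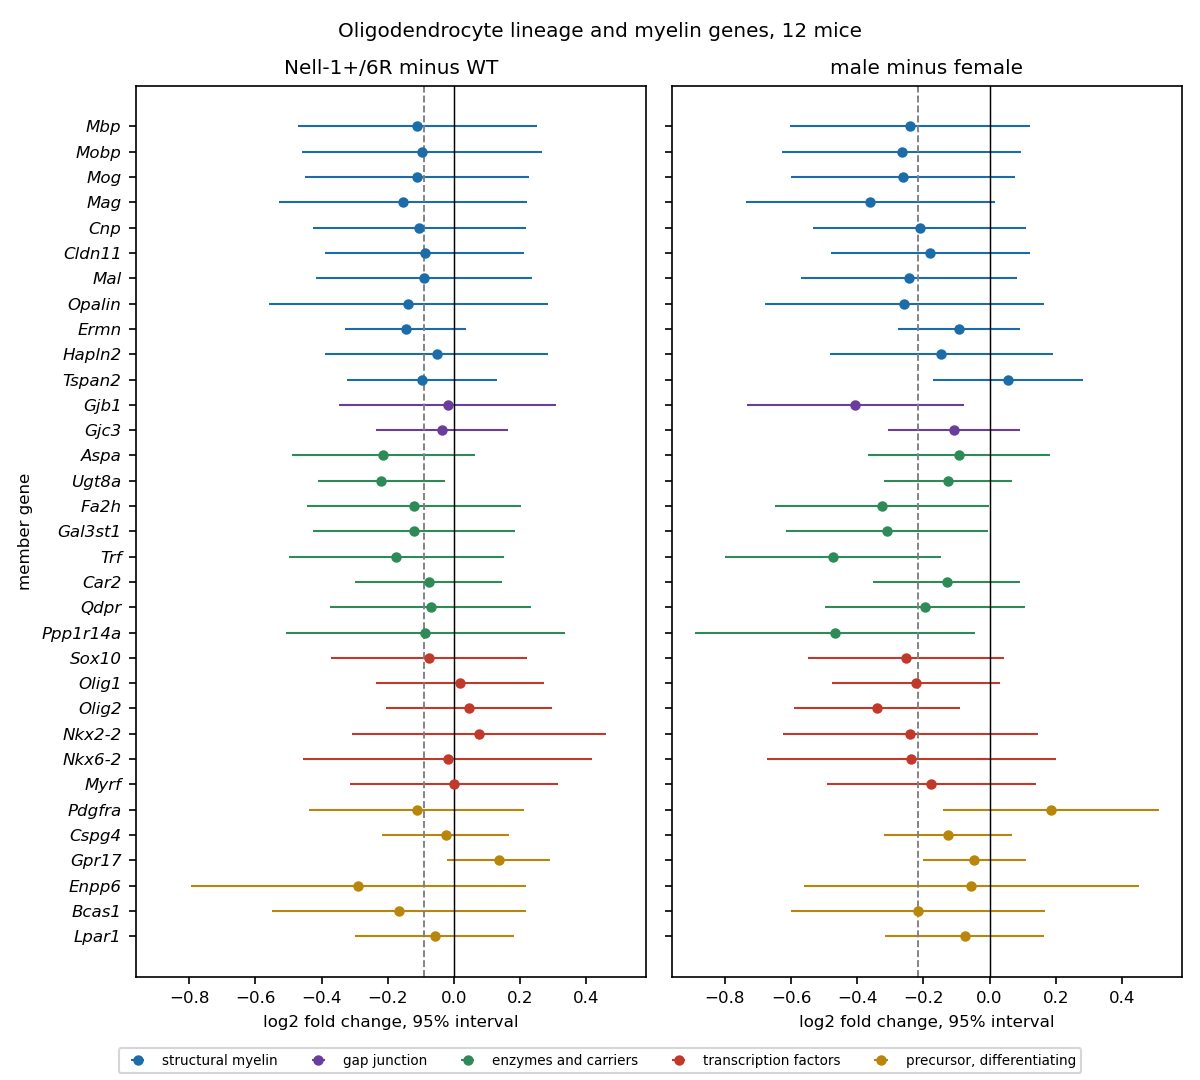
Fitted log2 fold changes (x axis) of the 33 genes with 95% intervals, coloured by role, for genotype on the left and sex on the right, with a dashed line at the median of the 33. The genotype median was -0.09 and the interval of Ugt8a alone stayed below 0, while the sex median was -0.22 and the intervals of 6 genes stayed below 0.

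The 6 mice of each sex allowed a second comparison. No gene of the 33 differed between males and females after adjustment (adjusted p of 0.868 or above by edgeR), where 6 of all genes tested did (0.0335%). At an unadjusted p under 0.05, 6 of 33 were lower in males and none was higher, against 2.85% of all genes lower in males. Of the 33 fitted male-to-female log2 fold changes 31 were below 0, with a median of -0.22 against -0.00 for all genes, and the exceptions were Pdgfra (0.19, SE 0.15) and Tspan2 (0.06, SE 0.11). With 1 mouse left out at a time the median ran from -0.30 without female WT 3 to -0.10 without female Nell-1+/6R 1. Of markers of bordering tissue, 9 of 9 for choroid plexus (median -1.16) and 10 of 12 for leptomeningeal fibroblasts (median -0.48) were below 0, none at an unadjusted p under 0.05. Of the mural cell markers 7 of 9 were below 0, with 1 at that threshold, and of the thalamus and habenula markers 4 of 8, with none. The part of these tissues in the result was not tested.

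Trf had the smallest p. It was at 187, 262 and 348 CPM in the 6 females and at 139, 199 and 227 CPM in the 6 males. The sexes overlapped, since the lowest female was below 4 of the males (log2 fold change -0.47, SE 0.15, 95% interval -0.80 to -0.15, adjusted p = 0.868 by edgeR). Olig2, which specifies the lineage, was at 31.6, 40.9 and 56.9 CPM in females and at 31.8, 33.4 and 36.6 CPM in males. All females but female Nell-1+/6R 3 were above every male (-0.34, SE 0.12). The unadjusted p of Trf and Olig2 stayed below 0.05 whichever of the 12 mice was left out, at most 0.025 and 0.034.

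Gjb1, which lies on the X chromosome, was at 11.7, 17.6 and 21.3 CPM in females and at 10.3, 13.4 and 14.0 CPM in males (-0.41, SE 0.15). Ppp1r14a was at 11.2, 15.6 and 22.8 CPM in females and at 8.0, 12.6 and 14.6 CPM in males (-0.47, SE 0.20). In both, the upper females stood above all males and the lower females lay among them. Gal3st1 and Fa2h were at -0.31 (SE 0.14) and -0.32 (SE 0.15). The unadjusted p rose to 0.05 or above in 9 of 12 fits without 1 mouse for each of these 2 genes, in 6 of 12 for Ppp1r14a and in 3 of 12 for Gjb1. The count of 6 rested on single mice, falling to 2 without female WT 2, female Nell-1+/6R 1 or male Nell-1+/6R 1, to 3 without female Nell-1+/6R 2, male WT 3 or male Nell-1+/6R 3, and rising to 13 without female WT 3 and to 10 without female Nell-1+/6R 3. It was 4 to 9 over the other settings, lowest with limma-voom and highest after the correction for GC content and length. The share of all genes called in these fits is not given here. Whether the count of these genes rose and fell with that share was not tested.

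The genotype difference was also fitted within each sex. In females the median log2 fold change of the 33 genes was 0.04, with 25 above 0 (all genes: median -0.00, 8785 of 17937 above 0). After the correction for GC content and length it was 0.01, with 19 above 0. In males it was -0.22, with 30 below 0, and -0.21 after that correction. The interaction, which is the male minus the female genotype effect, had a median of -0.28 with 31 of 33 below 0, but no gene passed it after adjustment, as for all genes tested (0%), and 0 of 33 had an unadjusted p under 0.05, against 3.09% of all genes. With 1 mouse left out at a time this median ran from -0.45 without female WT 2 to -0.11 without female Nell-1+/6R 1. Choroid plexus markers, from tissue beside the hippocampus, moved the same way, with a median of 0.82 in females (9 of 9 above 0), -3.72 in males (9 of 9 below 0) and -4.54 for the interaction, and their part in the result was not tested. Gjc3 came closest, with an unadjusted p just above 0.05 (interaction -0.36, SE 0.17). It was at 38.0, 45.3 and 36.8 CPM in the female WT mice, at 48.8, 40.6 and 42.8 in the female Nell-1+/6R mice, at 39.6, 45.3 and 41.0 in the male WT mice and at 38.1, 39.3 and 31.0 in the male Nell-1+/6R mice. In males the 3 Nell-1+/6R mice were all below the 3 WT mice, while in females the genotypes overlapped. Without male Nell-1+/6R 3 the mean log2 level of the 33 genes differed between the genotypes by -0.02 in place of -0.09, and without female WT 2 by -0.03, while without female Nell-1+/6R 1 it was -0.18 and without female WT 3 it was -0.14.

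The spread between mice of the same group was wider for these genes than for most. After the means of the 4 groups were removed, the SD of log2 CPM over mice had a median of 0.31 over the 33 genes, from 0.12 for Gpr17 to 0.43 for Enpp6, against a median of 0.16 over the 12676 genes with a mean log2 CPM at or above that of the lowest of them. The mean log2 level of the 33 genes, each centred on its own mean, was highest in female Nell-1+/6R 1 at 0.40 and female WT 2 at 0.36, and lowest in male Nell-1+/6R 3 at -0.41, a 1.75-fold span. The other 9 mice lay between -0.20 and 0.13. Of the 33 genes 18 were highest in female Nell-1+/6R 1 and 8 in female WT 2, and 24 were lowest in male Nell-1+/6R 3. For the structural myelin genes the span was 2.03-fold.

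**Figure D3:**
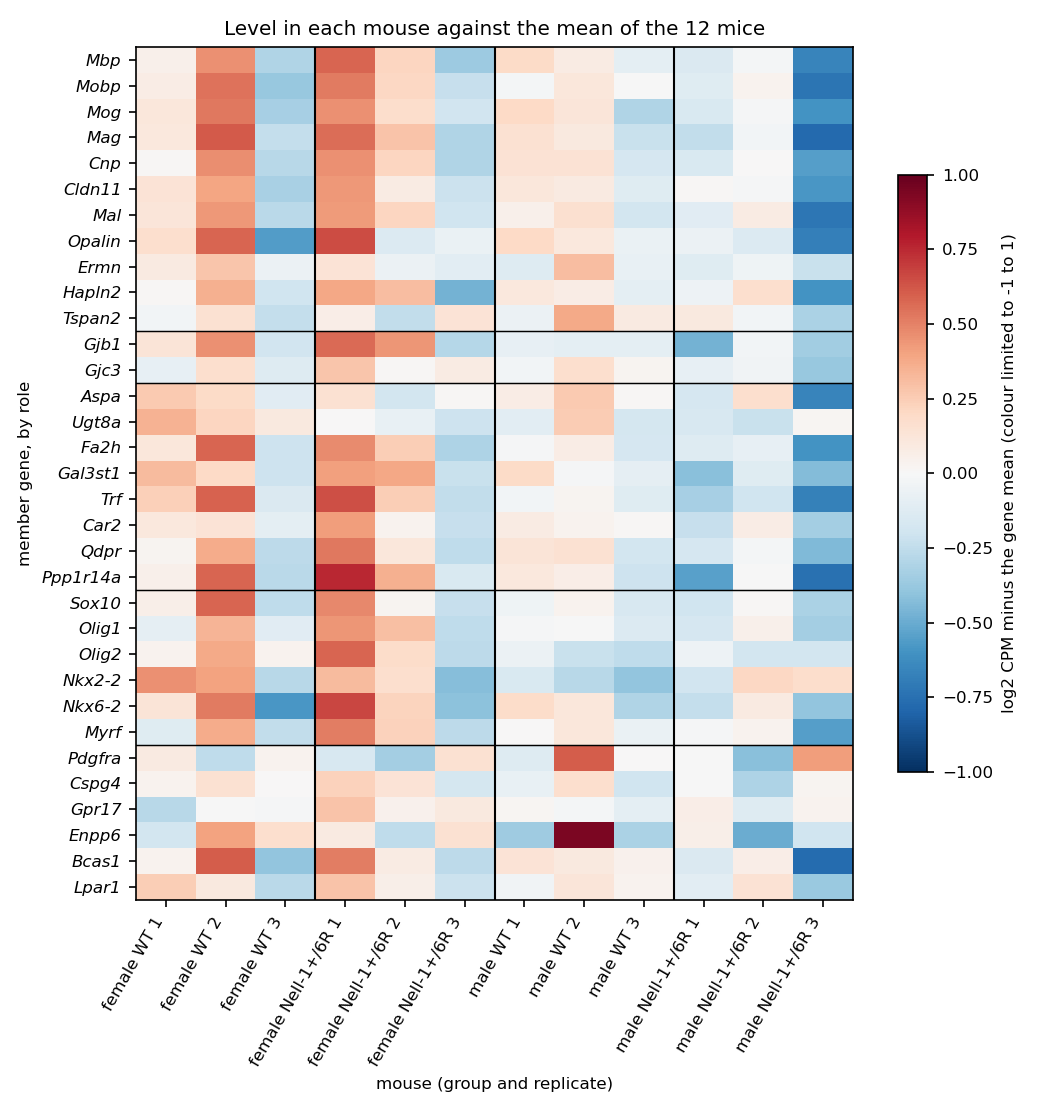
Each row is 1 of the 33 genes by role, each column 1 of the 12 mice by group, and the colour is log2 CPM minus the gene's mean over the mice. Female WT 2 and female Nell-1+/6R 1 are red and male Nell-1+/6R 3 is blue down most of the rows, where the mean over the 33 genes was 0.36, 0.40 and -0.41, while Pdgfra goes the other way in all 3.

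Most of the genes moved together over the mice. With group means removed, each gene was correlated over the 12 mice with the mean of the other 32, and 22 of 33 had a Pearson r above 0.8, where 3.24% of all genes tested did and 4.23% of the 12684 genes with a mean CPM at or above that of the lowest of them. The median r was 0.90. Qdpr had the highest r (0.99, Spearman's rho 0.99, permutation p = 1e-05 for each, the smallest that 100000 permutations can give, adjusted p = 3.7e-05 for r and 5.5e-05 for rho), with Trf, Cnp and Fa2h at 0.98. By permutation 27 of 33 had an adjusted p under 0.05 both for r and for rho. Other genes were not put to this test, so no share over all genes stands beside that count. Over 12271 genes at or above the lowest member's level, r rose with GC content (Spearman's rho 0.61, and 0.34 over the 33). Values were permuted freely across the 4 groups after their means were removed, so these p-values can be too small. Without the 2 mice farthest from the median, 19 of 33 were above 0.8. The mice share their libraries' depth and base composition across all these genes, so the values describe these 12 libraries.

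These values varied within each role, and no difference between roles was tested. Of the structural myelin genes 9 of 11 had an r above 0.8 (all but Tspan2 and Ermn, at 0.46 and 0.78), of the gap junction genes 2 of 2, of the enzymes and carriers 5 of 8 (Ugt8a, Aspa and Gal3st1 were at 0.33, 0.64 and 0.76), and of the transcription factors 4 of 6, among them Myrf and Sox10 at 0.95 and 0.96. Of the 6 precursor and differentiating cell genes only Bcas1 and Lpar1 passed it, at 0.94 and 0.83. Pdgfra had the lowest r of all (-0.46), and Enpp6, Gpr17 and Cspg4 were at 0.14, 0.18 and 0.45. Mog was at 70.4 CPM in female WT 2, 67.0 in female Nell-1+/6R 1 and 32.3 in male Nell-1+/6R 3, where Pdgfra was at 31.0, 33.04 and 49.6 CPM. In these 3 mice Pdgfra was low where Mog was high and the reverse, but over all 12 the r of Pdgfra did not pass (adjusted p = 0.152 by permutation). Pdgfra peaked in male WT 2 at 56.2 CPM, as did Enpp6 at 5.24 CPM, where Mog was at 53.1 CPM.

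**Figure D4:**
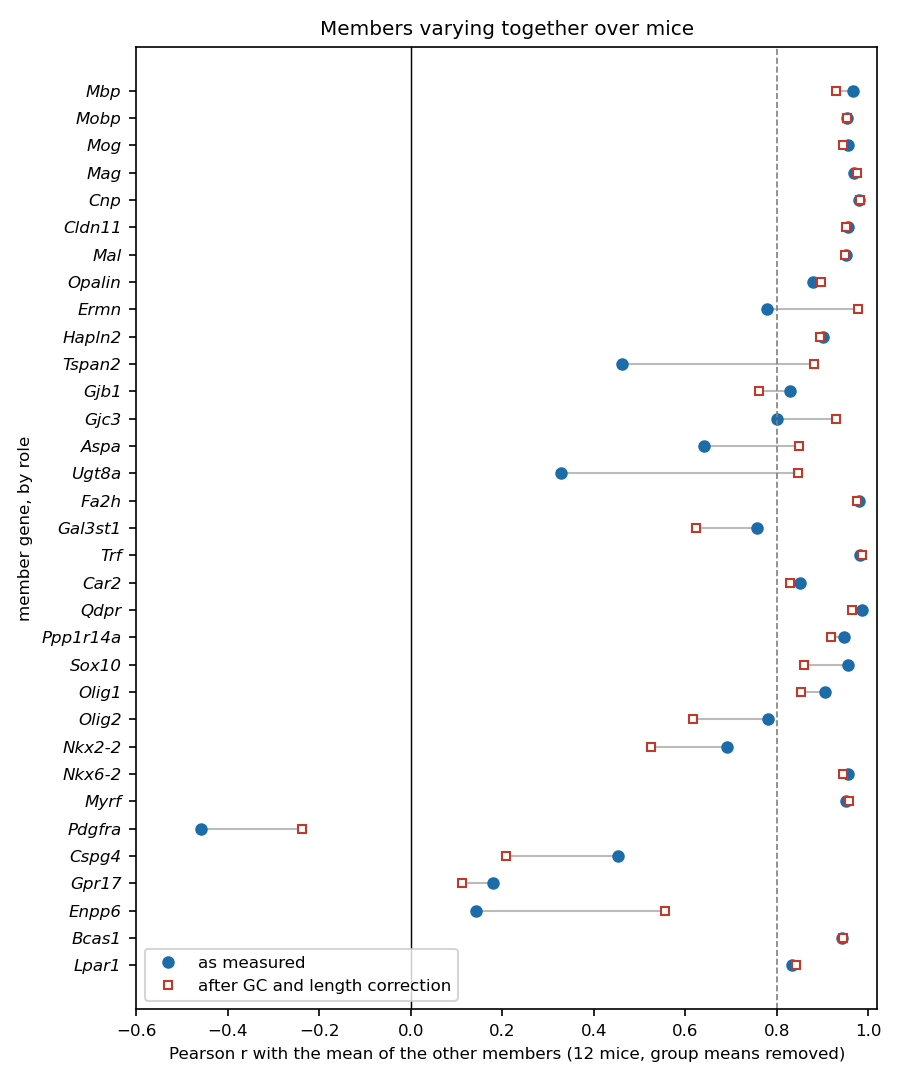
Pearson r (x axis) of each of the 33 genes with the mean of the other 32 over 12 mice, group means removed, as measured (circles) and after the correction for GC content and length (open squares), with a dashed line at 0.8. Of the 33 genes 21 sit above 0.8 in both, Ugt8a moves from 0.33 to 0.85, and Pdgfra stays below 0 at -0.46 and -0.24.

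The base composition of the libraries moved with this pattern. Across 11710 genes, which are not independent replicates, the correlation of a gene's GC content with a mouse's deviation from the mean level ran from -0.50 in female Nell-1+/6R 3 to 0.47 in female Nell-1+/6R 1. It was 0.38 in female WT 2, -0.39 in female WT 3 and -0.42 in male Nell-1+/6R 3, so the 2 mice highest in the 33 genes had a positive value and the 3 lowest a negative one. Other mice departed from this order, with female Nell-1+/6R 2 at 0.45 and male WT 1 at 0.38 for mean levels of 0.11 and 0.02, and male WT 2 at -0.36 for a mean level of 0.13. With group means removed, this value and the mean level of the 33 genes had a Pearson r of 0.76 over the 12 mice (Spearman's rho 0.74), and 0.61 without the 2 mice farthest from the median. The 33 genes had a median transcript GC content of 52.8%, from 38.0% for Ugt8a to 64.3% for Nkx6-2, against 50.1% over those 11710 genes. After each mouse's trend with GC content and length was taken out, 25 of 33 genes had an r above 0.8, where 2.04% of the 15977 genes with a GC value did. Of these 25 genes 21 had been above 0.8 before. The 4 that joined them were the GC-poor genes Ugt8a (0.33 before, 0.85 after), Tspan2 (0.46 and 0.88), Aspa (0.64 and 0.85) and Ermn (0.78 and 0.98), and Gjb1 left them (0.83 and 0.76). The span of the mean level was 0.76 on the log2 scale with the correction and 0.81 without it.

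**Figure D5:**
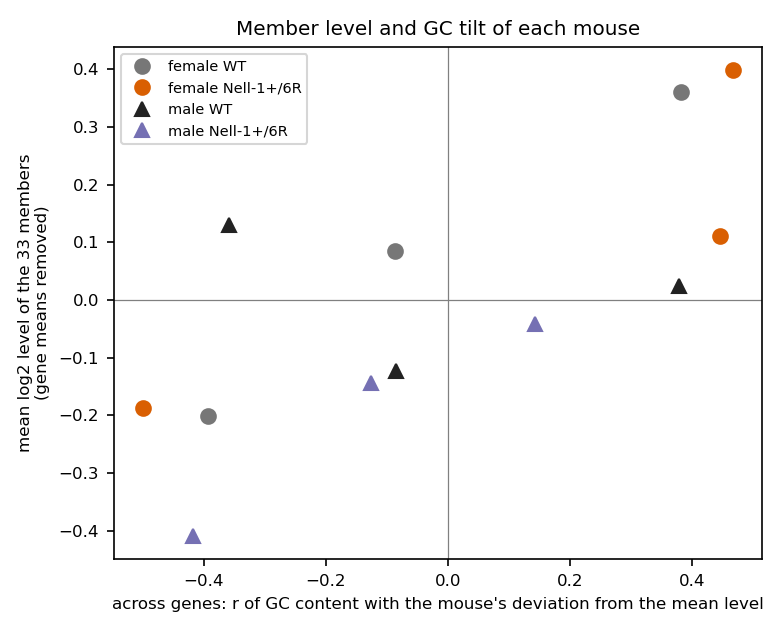
The mean log2 level of the 33 genes in each mouse (y axis) against the correlation, across 11710 genes, of GC content with that mouse's deviation from the mean level (x axis), with a point for each of 12 mice by group. Female Nell-1+/6R 1 and female WT 2 lie at the top right (0.40 and 0.36 on the y axis) and male Nell-1+/6R 3 at the bottom left (-0.41), with male WT 2 off the trend at 0.13.

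Most of the further genes of mature oligodendrocytes followed, and most of the further precursor genes did not. Of 33 further myelin and mature oligodendrocyte genes, 25 had an r above 0.8 with the mean of the 33 genes (median 0.90), led by Tmem63a at 0.98, and 22 did after the correction. Of 15 further precursor genes 2 did, Sox8 and Matn4, and the median was -0.28, where after the correction 2 did and the median was 0.09. By genotype, 30 of the 33 further myelin genes had a fold change below 0 (median -0.10). At an unadjusted p under 0.05, 2 were lower in Nell-1+/6R mice, against 2.2% of all genes tested. They were Gsn, an actin-severing protein (-0.26, SE 0.093), and Apod, a lipid carrier (-0.42, SE 0.16). Markers of leptomeningeal fibroblasts were lower as well (median -1.01), and the part of other tissue in Gsn and Apod was not tested. None of the 15 further precursor genes had an unadjusted p under 0.05, with Lhfpl3 having the smallest (-0.25, SE 0.13).

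Of 11 ligands that act on oligodendrocytes, 2 were lower at an unadjusted p under 0.05 and none higher. Of all genes tested, 2.2% were lower and 3.26% differed in either direction at that threshold. The 2 ligands were Bmp4, which holds back differentiation (-0.63, SE 0.25), and Jag1, a Notch ligand (-0.34, SE 0.13). Bmp4 alone of the 11 passed both thresholds used in the study, against 1.46% of all genes. Of 13 receptors, Igf1r was lower (-0.21, SE 0.091) and Tnfrsf21, a death receptor that restrains myelination, was higher (0.13, SE 0.057). Of 6 inhibitors of differentiation only the Notch target Hes5 had an unadjusted p under 0.05 and was higher (0.48, SE 0.21). None of 19 genes of cholesterol synthesis, which supplies myelin, had one. Each of these had an adjusted p of 1.00.

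Markers of tissue bordering the hippocampus also varied. Choroid plexus markers summed to between 43.1 and 5180 CPM, with female Nell-1+/6R 1 and male WT 3 highest at 5180 and 4647 CPM, and all 9 were below 0 by genotype (median -0.97) with none at an unadjusted p under 0.05. Within males 6 of the 9 were lower in Nell-1+/6R mice at that threshold and within females none was past it, and 3 of the 9 had an interaction p under it. Male WT 3, rich in choroid plexus transcripts, had a mean level of the 33 genes of -0.12, and female Nell-1+/6R 1 one of 0.40. Of 12 leptomeningeal fibroblast markers 9 were lower in Nell-1+/6R mice at an unadjusted p under 0.05 (median -1.01), among them Col3a1, Col1a1 and Col1a2, summed over 138 to 438 CPM in WT and 82.4 to 395 CPM in Nell-1+/6R mice, and of 9 mural cell markers 5 were (median -0.22), Acta2, Myh11 and Tagln first. Of 8 thalamus and habenula markers tested 2 were lower, Slc17a6 (-1.23, adjusted p = 0.0035 by edgeR) and Ntng1 (-0.17). All 9 choroid plexus markers had a positive r with the 33 genes (0.31 to 0.58, median 0.49, and 0.46 after the correction for GC content and length). This was the highest median of single-gene r among the lists of other cells. The mean level of these markers had an r of 0.47 with that of the 33 genes (adjusted p = 0.337 by permutation), and 0.20 without the 2 mice farthest from the median. For microglia markers it was 0.49 (adjusted p = 0.337 by permutation) and 0.44. None of the choroid plexus markers reached 0.8, and no leptomeningeal or mural marker did. It was passed by 1 of 10 hippocampal neuron markers (Wfs1, 0.96), 1 of 8 microglia markers (C1qa, 0.84), 1 of 9 astrocyte markers (Gfap, 0.82) and 1 of 6 peripheral myelin markers. The lowest values in these lists were -0.94 for P2ry12 of microglia and -0.91 for Lhx9 of thalamus and habenula. Of 9 astrocyte and 8 microglia markers none had an unadjusted p under 0.05, and of 10 markers of hippocampal neurons Fibcd1 and Spink8 were higher and C1ql2 lower at that threshold. The part of these tissues in the levels of the 33 genes was not tested.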

How the data were processed

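Hippocampal RNA from 12 mice was sequenced and the authors deposited 1 table of raw read counts per gene. Per the submitters' processing notes and the study's methods, reads were aligned to mm10 with HISAT2 (version 2.1.0) and counted with featureCounts (version 2.0.1 in the notes, another in the methods). No source used here states the strand setting or how multi-mapping reads were treated. Genes were named by Entrez identifier through RefSeq, which matched 25275 of 27179.

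The members and lists were chosen with earlier results of these data known. Genes reaching a CPM of 0.2 in 2 or more mice entered the tests with edgeR 4.0.16 (TMM factors, quasi-likelihood test, sex and genotype as terms, or 4 groups for the interaction), with Benjamini-Hochberg adjustment over 17937 genes. edgeR was used where the study used limma-voom, which is among the alternatives (limma 3.58.1, DESeq2 1.42.0). The script was tested on simulated data. Library totals of 10834905 to 16016317 counts set the precision, and the rarest member had 22 counts in its lowest library. Levels are CPM with a prior count of 2 on the log scale, and levels per kb use summed exon length. The correction for GC content and length fitted a cubic curve in each mouse over the longest GENCODE M21 transcripts, and was chosen after seeing the data. Correlations and motif counts used Python, with 100000 permutations. Every member was named. Levels over mice were given for those at an unadjusted p under 0.05 for genotype, up to 4 by smallest p for sex, and the highest and lowest per kb, and up to 3 genes by smallest p were named of each other list. Gjc3, Gpr17, Mog and Pdgfra received values by mouse, and genes of other lists were named for their r, after their results were seen. Libraries within a group differed beyond counting noise (chi-square per degree of freedom from 4.87 to 31.7), so each was counted as 1 replicate. A result on 1 marker gene is not reported here.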

Additional observations from a re-analysis of the deposited data

Results flagged for a closer look

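Among 68 sets of 6 mice tested (33 genes and their mean level, in each genotype), 2 had a mouse standing apart by Dixon's criterion, where chance alone gives about 1 in 20. Both were female WT 2. For Sox10 it was at 91.4 CPM while the other 5 WT mice lay between 51.1 and 63.4 CPM (gap over range 0.629 on the log2 scale). For Olig1 it was at 181.6 CPM and the other 5 WT mice lay between 130.7 and 142.9 CPM (gap over range 0.73 on that scale). The same mouse had the second highest mean level of the 33 genes.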

How the results depend on the processing

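No gene of the 33 passed adjustment for genotype, sex or interaction under any alternative run. Another scaling, filter, test, omitted sex term, correction for GC content and length or left-out mouse kept the genotype median below 0, from -0.18 to -0.02 over left-out mice, and in the fits of one sex it was 0.04 in females and -0.22 in males. Of the 33 genes 19 kept their genotype direction over 21 settings and 30 their sex direction over 19, with the lowest adjusted p at 0.923 and 0.441. The count of genes at an unadjusted p under 0.05 for genotype was 2 in females alone (Ugt8a lower, Gpr17 higher), against 2.84% of all genes tested. In males alone it was 0, against 3.37%. After the correction for GC content and length it was 1 in each sex, Gpr17 higher in females and Gal3st1 lower in males. Over left-out mice, with both sexes in the fit, the count ran from 0 to 3. It was 0 without female WT 1 or 2, female Nell-1+/6R 2 or 3, or male WT 2, 2 without male Nell-1+/6R 2 and 3 without female Nell-1+/6R 1. For sex it ran from 2 to 13 over left-out mice. For the interaction it was 1 with DESeq2's size factors, with upper-quartile factors, with limma-voom and with the correction for GC content and length, and 0 to 7 over left-out mice. The count past both thresholds was 1 with that correction (Nkx2-2) and 0 to 3 over left-out mice. It was highest without female Nell-1+/6R 3, at 7 and 3. The cause was not tested. The share of all genes called with a left-out mouse or another setting is not given here, so these counts describe the 33 genes alone.

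A replicate block left the genotype count at an unadjusted p under 0.05 at 1 (Ugt8a) and the median at -0.10. Same-numbered mice had correlations of -0.20 to 0.24, not every mouse correlated best with its own number, and the numbers were not taken as pairs. The number of genes with an r above 0.8 ran from 18 to 24 over left-out mice and from 21 to 25 over the other settings. The SE of the genotype log2 fold change was 0.073 or more for each of the 33 genes.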
